A study of Mus musculus with 48 samples.

Results

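TRBJ1-1, TRBJ1-2, TRBJ1-3, TRBJ1-4 and TRBJ1-5 are 5 of the 12 joining (J) segments that were used by clones of the mouse T cell receptor β (TCRβ) chain in these repertoires. Their members were the clone records whose J call was one of these segments. This held for 272633 of 959731 clone records (28.4%), with 91047 for TRBJ1-1, 52216 for TRBJ1-2, 44865 for TRBJ1-3, 58576 for TRBJ1-4 and 25929 for TRBJ1-5.

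A TCRβ chain is assembled in the thymus by V(D)J recombination, which joins a D segment to a J segment and then a V segment to the joined D and J. The joints lose bases from the segment ends and gain bases that no segment encodes, and together they make up the CDR3, the loop that contacts the peptide presented to the T cell. TRBJ1-1 to TRBJ1-5 lie downstream of TRBD1 and upstream of TRBD2. Because D joins J in the order of the chromosome, TRBD1 can join to J segments of both clusters, whereas TRBD2 can be joined by deletion only to the TRBJ2 cluster.

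The germline sequences are shown because they are the source of the 3′ part of the CDR3 in clones assigned to these segments. Each stands on the plus strand of chromosome 6 (GRCm38, GENCODE M21), and the capitals mark the bases that fall inside the CDR3.
TRBJ1-1 (chr6:41533864-41533911): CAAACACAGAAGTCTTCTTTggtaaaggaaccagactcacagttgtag
TRBJ1-2 (chr6:41534001-41534048): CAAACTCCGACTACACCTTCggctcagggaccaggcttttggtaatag
TRBJ1-3 (chr6:41534323-41534376): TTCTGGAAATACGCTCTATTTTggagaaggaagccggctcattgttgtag
TRBJ1-4 (chr6:41534811-41534861): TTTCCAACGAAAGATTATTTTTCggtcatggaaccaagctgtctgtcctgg
TRBJ1-5 (chr6:41535084-41535133): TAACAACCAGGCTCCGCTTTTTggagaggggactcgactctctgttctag
The coordinates are those of the annotated gene, each a J segment of a single coding exon, and for TRBJ1-3 the annotated transcript printed here is shorter than the gene. TRBJ1-1 and TRBJ1-2 bring up to 20 bases into the CDR3, TRBJ1-3 and TRBJ1-5 up to 22, and TRBJ1-4 up to 23. Of the clones of each segment, 98.9% to 99.5% ended in the last 6 of these germline bases.

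The repertoires came from 4 female C57BL/6 mice (C57BL/6J in the methods of the study) of 8 weeks, numbered 5 to 8, which had received 500000 Lewis lung carcinoma (LLC) cells under the skin on both sides of the back and were analysed on day 13. LLC is a lung tumor cell line of the same strain, and no mouse carried a transgene or a treatment according to the labels. From every tumor, CD4+ and CD8+ T cells were sorted, and from every tumor-draining lymph node (dLN) the CD44hi cells of both subsets, that is, cells with high CD44 as antigen-experienced and memory cells have. All sorts were gated on TCRβ+ cells without intravenous staining and without B220, NK1.1, CD11b and either Ter119 (tumors) or Ly6G (dLNs). The tumor cells were not gated on CD44, so organ and CD44 gate cannot be told apart in any comparison of tumor with dLN. Because the measurement covers TCRβ rearrangements alone, the sorted subsets could not be checked against marker genes. The 48 libraries comprised 32 from tumors, 2 fragments per tumor, and 16 from dLNs.

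The deposited libraries held 326582 to 4840722 reads, of which 131070 to 2035380 were drawn at random at 6 reads per sorted cell. After the fragments of a tumor had been summed, a repertoire held between 5270 and 21054 clones of the 5 segments in CD8+ tumors and between 8557 and 13429 in CD8+ dLNs. The CD4+ repertoires held fewer, between 2117 and 6211 in tumors and between 3310 and 5910 in dLNs. The 95% Wilson bound of a segment's share in 1 repertoire lay at most 0.732 percentage points (clones) or 0.335 points (reads) from the share. Without molecular identifiers such intervals cover counting error only. A share of reads depends on cells and on RNA per cell, which cannot be told apart here.

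2 measures of usage are given. The share of reads is the percent of a repertoire's reads whose clone uses the segment, and the share of clones counts each distinct clone (a CDR3 nucleotide sequence with its V and J call) once. The mouse is the replicate (n = 4) and its value is the mean of left and right. Groups were compared by the two-sided exact permutation test over all 70 divisions of 4 and 4 values, in which p = 0.0286 is the smallest value possible and is reached when the groups do not overlap. Only segments that reached it are called higher or lower. All 12 J segments were tested, and adjusted p-values (Benjamini-Hochberg) run over the 12. A second fit, limma with the mouse as the replicate block, was read at an adjusted p under 0.05, which is a stricter threshold than the unadjusted exact p.

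By clones, the order of the 5 segments was nearly the same in every group. TRBJ1-1 came first with 9.65% ± 0.00931 of the clones in CD8+ dLNs (mean ± SD, n = 4), 9.08% ± 0.0947 in CD8+ tumors, 9.74% ± 0.212 in CD4+ dLNs and 10.0% ± 0.268 in CD4+ tumors. TRBJ1-4 followed with 5.99% ± 0.101, 6.04% ± 0.163, 6.65% ± 0.165 and 6.39% ± 0.218 in the same groups. TRBJ1-5 was the least used of the 5, with 2.64% ± 0.133, 2.38% ± 0.0535, 2.93% ± 0.166 and 3.49% ± 0.227. TRBJ1-2 and TRBJ1-3 lay between these, with TRBJ1-2 above TRBJ1-3 in every group but the CD4+ dLNs. TRBJ1-2 made up 5.64% ± 0.2004 of CD8+ dLN clones and 5.30% ± 0.110 of CD4+ dLN clones, and TRBJ1-3 made up 4.30% ± 0.0927 and 5.78% ± 0.113. In CD4+ tumors TRBJ1-4, TRBJ1-2 (6.10% ± 0.480) and TRBJ1-3 (5.98% ± 0.225) overlapped between mice, whereas in the other 3 groups no neighbours in the order overlapped. Among all 12 J segments TRBJ1-1 was the 4th most used in every group, and TRBJ1-5 was the 12th in 3 groups and the 11th in CD4+ tumors.

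**Figure D1:**
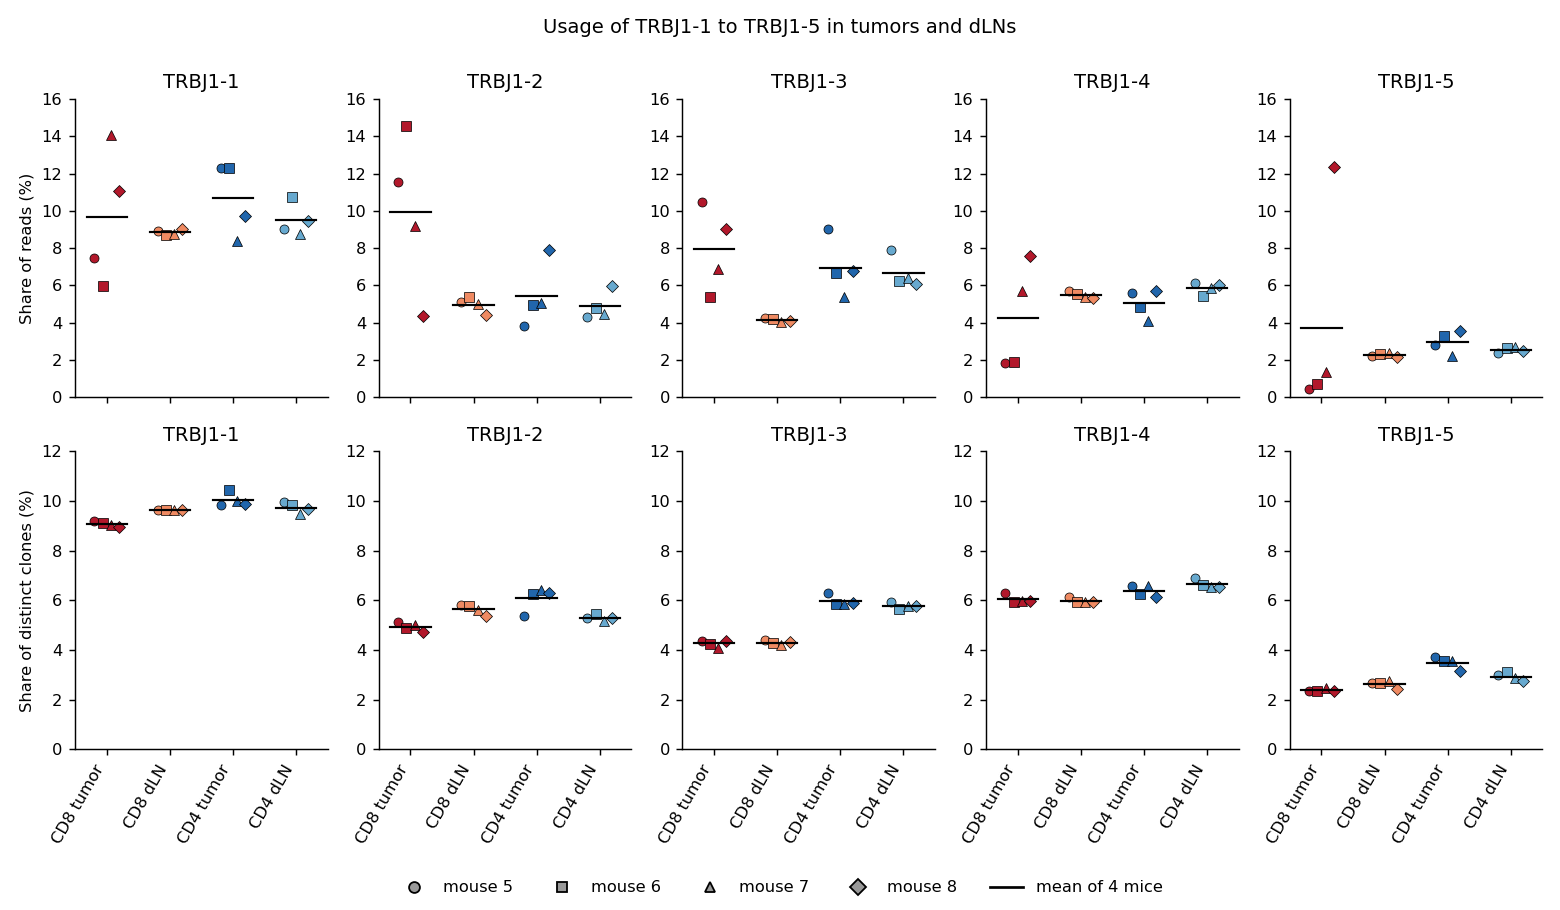
Share of reads (upper panels, %) and share of clones (lower panels, %) of TRBJ1-1 to TRBJ1-5 in the 4 groups, with 1 marker per mouse (mean of left and right) and a horizontal line for the mean. By reads the CD8+ tumors spread most, as for TRBJ1-5 with 0.428% to 12.4%, whereas by clones the mice of a group lie close together, as for TRBJ1-5 in CD8+ tumors with 2.34% to 2.46%.

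By reads, the CD8+ tumors differed from mouse to mouse in which segment was frequent. The 5 segments together held 31.8%, 28.5%, 37.2% and 44.4% of the CD8+ tumor reads in mice 5 to 8 (35.5% ± 6.93), against 25.7% ± 0.567 in the CD8+ dLNs. TRBJ1-5 held 0.428%, 0.689%, 1.35% and 12.4% of the reads in the tumors of mice 5 to 8, so that mouse 8 stood far above the others. In the CD8+ dLNs of the same mice TRBJ1-5 held 2.26% ± 0.103, between the 3 low tumor values and the high one. TRBJ1-4 held 1.82%, 1.89%, 5.68% and 7.56% in the tumors, against 5.49% ± 0.174 in the dLNs. TRBJ1-2 held 11.6%, 14.6%, 9.19% and 4.38%, against 4.97% ± 0.4001, and here mouse 8 was the lowest. TRBJ1-1 held 7.47%, 5.99%, 14.1% and 11.04%, against 8.85% ± 0.152. The tumor and dLN values of TRBJ1-1, TRBJ1-2, TRBJ1-4 and TRBJ1-5 overlapped. Among the reads of clones up to 1%, 3 of these did not overlap (exact permutation p = 0.0286 for each), as for 33.3% of all 12 segments. TRBJ1-1 was higher in tumors, with 11.9% against 8.89%, whereas TRBJ1-4 (5.01% against 5.51%) and TRBJ1-5 (1.71% against 2.27%) were lower.

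TRBJ1-3 was the 1 of the 5 segments whose read shares in CD8+ tumors and dLNs did not overlap, against 33.3% of all 12 segments. It held 10.5%, 5.40%, 6.87% and 9.02% of the CD8+ tumor reads in mice 5 to 8 and 4.24%, 4.18%, 4.04% and 4.07% of the dLN reads. Every tumor value was above every dLN value, with a mean difference of 3.80 ± 2.22 points (SD of the mouse differences, n = 4), a ratio of 1.92 and an exact permutation p = 0.0286 (adjusted p = 0.0857). In limma, with the replicate block of mice, the log2 difference of TRBJ1-3 was 0.90 with an unadjusted p of 0.0164 and an adjusted p of 0.0883, so that it passed at the unadjusted and not at the adjusted threshold. At the unadjusted threshold TRBJ1-2 passed too (limma, log2 difference 0.87, p = 0.0336). The median difference was 1.45 points over the 5 segments, which is the value of TRBJ1-5, and -0.0739 points over all 12. Without mouse 8 these medians were 0.393 and -0.932 points. When clones above 1% of a repertoire's reads were left out, TRBJ1-3 held 4.59% ± 2.77 of the remaining CD8+ tumor reads and 4.15% ± 0.0831 of the dLN reads (exact permutation p = 1). The tumor values were 3.23%, 8.62%, 4.03% and 2.46% in mice 5 to 8, and the dLN values 4.24%, 4.18%, 4.04% and 4.13%. Only in mouse 6 did the tumor value lie above the dLN value.

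In CD4+ T cells none of the 5 segments differed by reads between tumor and dLN, against 16.7% of all 12 segments. TRBJ1-1 held 12.3%, 12.3%, 8.41% and 9.71% of the CD4+ tumor reads and 9.50% ± 0.884 of the dLN reads. TRBJ1-2 held 3.81%, 4.97%, 5.05% and 7.89% in tumors and 4.88% ± 0.742 in dLNs. TRBJ1-3 held 9.00%, 6.65%, 5.39% and 6.78% in tumors and 7.92%, 6.25%, 6.39% and 6.10% in dLNs, with mouse 5 the highest in both organs. TRBJ1-4 held 5.06% ± 0.7499 and 5.86% ± 0.319, and TRBJ1-5 2.97% ± 0.587 and 2.53% ± 0.157. The median difference was 0.441 points over the 5 and -0.138 points over all 12 segments. Without mouse 8 these were 0.159 and -0.0139 points. The exact permutation p was at least 0.114 for each of the 5.

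The change from dLN to tumor by reads was larger in CD8+ than in CD4+ T cells for TRBJ1-3, by 3.51 points (exact permutation p = 0.0286, adjusted p = 0.171, n = 4 mice). This difference between subsets was reached by 16.7% of all segments. It was -0.222 points when clones above 1% were left out (exact permutation p = 0.914). In that setting the CD8+ tumor share was above the dLN share in mouse 6 only, with 8.62% against 4.18%. The CD4+ tumor share was above the dLN share in each mouse.

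The read shares of the CD8+ tumors rested on few clones. Of the 69 CD8+ tumor clones with a mean frequency above 1%, 25 (36.2%) used one of the 5 segments. TRBJ1-2 had 10 of them, TRBJ1-3 had 6, TRBJ1-1 and TRBJ1-4 had 4 each, and TRBJ1-5 had 1. Together these clones held 15.2% to 30.8% of a mouse's CD8+ tumor reads, while all other clones of the 5 segments held 10.3% to 18.6%. In CD4+ tumors 4 of 13 such clones (30.8%) used the 5 segments, 2 with TRBJ1-1 and 2 with TRBJ1-2, and they held at most 2.98% of a mouse's reads. In the CD8+ tumors of mice 5 and 6 no TRBJ1-4 clone was above 1%, and in those of mice 5, 6 and 7 no TRBJ1-5 clone.

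**Figure D2:**
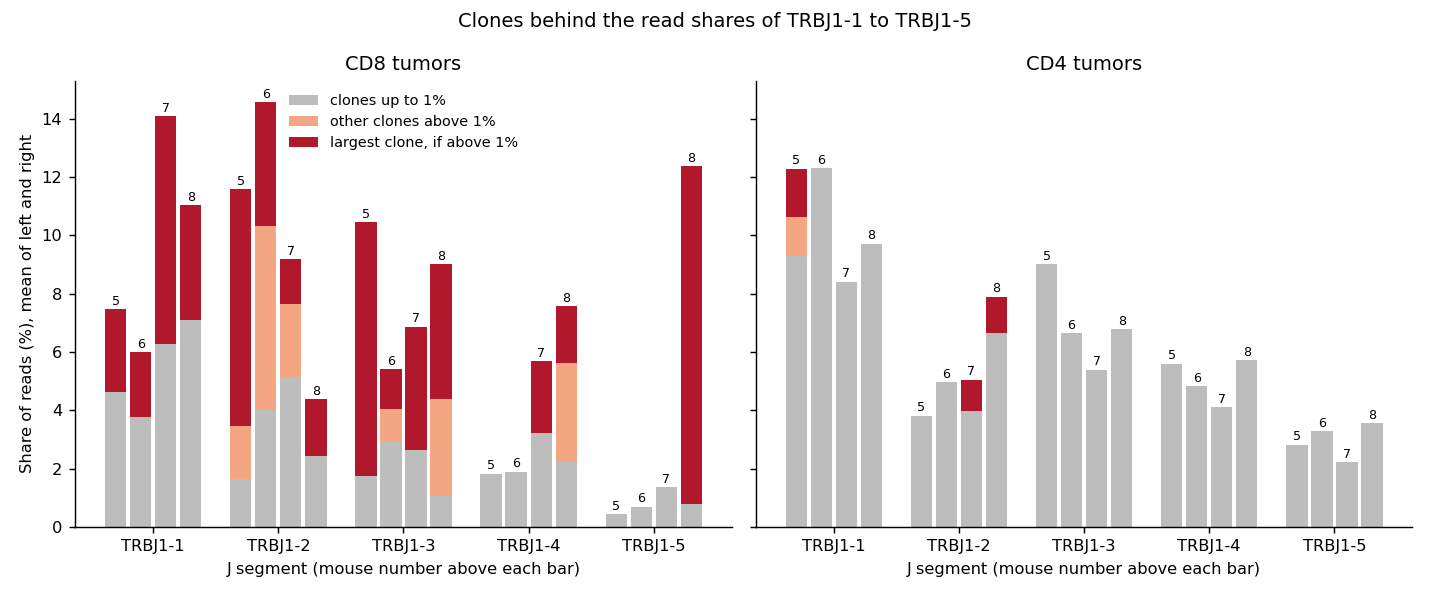
Share of tumor reads (%) of each segment by mouse, split into clones up to 1%, other clones above 1% and the largest clone of the segment. In mouse 8 the largest TRBJ1-5 clone of the CD8+ tumors held 93.7% of the segment's reads, and in CD4+ tumors the largest TRBJ1-5 clone held 13.4% to 15.7%.

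The CDR3 nucleotide sequences of the most frequent CD8+ tumor clone of each segment follow, with the germline J bases kept at their 3′ end in capitals, since they held 43.4% to 93.7% of the reads of their segment in 1 mouse.
TRBV20/TRBJ1-1, mouse 7: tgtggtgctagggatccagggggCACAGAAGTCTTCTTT
TRBV26/TRBJ1-2, mouse 5: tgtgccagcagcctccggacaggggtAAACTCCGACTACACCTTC
TRBV26/TRBJ1-3, mouse 5: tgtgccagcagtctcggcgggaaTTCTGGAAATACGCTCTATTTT
TRBV13-1/TRBJ1-4, mouse 7: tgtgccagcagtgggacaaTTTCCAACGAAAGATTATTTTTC
TRBV26/TRBJ1-5, mouse 8: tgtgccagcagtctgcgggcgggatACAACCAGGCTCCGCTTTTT
The TRBV26/TRBJ1-5 clone was the most frequent of the 5, at 13.9% (left) and 9.30% (right) in the tumors of mouse 8. Taken on the number of sorted cells, the 95% Wilson intervals were 13.8% to 14.0% and 9.22% to 9.38%. The clone made up 93.7% of the TRBJ1-5 reads of this mouse, and 0.0146% and 0.0320% of the reads in its left and right dLN. The TRBV26/TRBJ1-3 clone reached 9.59% on the left and 7.82% on the right of mouse 5, or 83.2% of the TRBJ1-3 reads (intervals 9.47% to 9.72% and 7.69% to 7.95%). The TRBV26/TRBJ1-2 clone held 6.96% and 9.28% in the same mouse, or 70.2% of the TRBJ1-2 reads (intervals 6.86% to 7.07% and 9.14% to 9.43%). Mouse 5 thus carried a pair of TRBV26 clones that joined neighbouring J segments and had CDR3s of the same length, 45 bases. The TRBV20/TRBJ1-1 clone held 8.18% and 7.50% in mouse 7, or 55.6% of the TRBJ1-1 reads, and the TRBV13-1/TRBJ1-4 clone 2.40% and 2.54%, or 43.4% of the TRBJ1-4 reads.

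In addition, 5 CD8+ clones above 3% used TRBJ1-1, TRBJ1-2 or TRBJ1-3 without being the most frequent clone of their segment. A TRBV5/TRBJ1-1 clone held 3.65% and 4.22% of the left and right tumor reads of mouse 8, and a TRBV26/TRBJ1-2 clone 4.28% and 4.23% in mouse 6. A TRBV5/TRBJ1-3 clone held 3.74% and 4.74% in mouse 7 and was at 0 reads in both dLNs of that mouse. 2 TRBV13-2/TRBJ1-3 clones of mouse 8 are shown because they shared all but 2 bases of the CDR3.
TRBV13-2/TRBJ1-3, first: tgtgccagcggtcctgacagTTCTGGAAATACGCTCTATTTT
TRBV13-2/TRBJ1-3, second: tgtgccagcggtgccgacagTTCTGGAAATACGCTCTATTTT
Counted from the first base of the CDR3, they differed by C13G and T15C, both in codon 5, and kept the whole of the 22 J bases. The first held 4.67% and 4.58% of the left and right tumor reads and the second 2.97% and 3.69%. Together they were most of the TRBJ1-3 reads of mouse 8, with 51.3% and 36.9%.

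In CD4+ tumors the most frequent clones of the 5 segments were smaller. They were TRBV26/TRBJ1-1 in mouse 5 (1.88% left and 1.40% right), TRBV13-2/TRBJ1-2 in mouse 8 (1.204% and 1.29%), TRBV13-2/TRBJ1-3 in mouse 5 (0.973% and 1.01%), TRBV1/TRBJ1-4 in mouse 5 (0.683% and 0.579%) and TRBV20/TRBJ1-5 in mouse 6 (0.554% and 0.479%). The TRBV13-2/TRBJ1-3 clone was also frequent in the dLNs of its mouse, with 0.709% and 0.584%.

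Of the 25 CD8+ clones above 1%, 21 had at least 1 read in both dLNs of their own mouse, 2 in 1 dLN and 2 in neither. With at least 3 reads, 19 were found in both, 4 in 1 and 2 in neither. The higher of the dLN frequencies had a median of 0.0275% and reached 0.142%. The limit that 3 reads set in a CD8+ dLN ranged from 0.000561% to 0.000972%. By V segment, TRBV26 had 7 of the 25 clones in 3 mice, and TRBV20 and TRBV4 had 4 each. TRBV5 and TRBV13-1 had 3 each, TRBV13-2 had 2, and TRBV12-1 and TRBV12-2 had 1 each. For the CD8+ clones above 1% of the other J segments, detection in dLNs and V segments were not counted. Whether these counts are particular to the segments studied here was therefore not tested.

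Among CD8+ tumor clones the segment shares are given by clone size. Among clones up to 0.001% of a tumor's reads, TRBJ1-2 made up 5.10% ± 0.321, TRBJ1-3 4.32% ± 0.173 and TRBJ1-5 2.50% ± 0.1000 (mean ± SD of 4 mice). In the classes of 0.001 to 0.01%, 0.01 to 0.1% and 0.1 to 1%, TRBJ1-2 made up 4.11% ± 0.163, 5.85% ± 0.863 and 9.98% ± 2.10. In the same classes TRBJ1-3 made up 4.06% ± 0.119, 3.13% ± 0.743 and 5.22% ± 5.31, and TRBJ1-5 1.76% ± 0.141, 3.63% ± 1.18 and 1.83% ± 1.32. The TRBJ1-3 share of the class of 0.1 to 1% was 1.25%, 12.7%, 5.36% and 1.58% in mice 5 to 8. Among clones above 1%, of which a tumor held 11 or more, TRBJ1-2 made up 15.3% ± 8.08, TRBJ1-3 8.75% ± 1.66 and TRBJ1-5 1.35% ± 2.70. TRBJ1-1 made up 9.27% ± 0.280, 8.07% ± 0.229, 13.2% ± 3.73, 13.1% ± 4.25 and 6.80% ± 1.73 of the classes from the smallest to the largest. The highest means were those of the classes of 0.01 to 0.1% and 0.1 to 1%. In mouse 7, TRBJ1-1 made up 8.77% of the class of 0.1 to 1% and 9.15% of the smallest class. TRBJ1-4 made up 6.10% ± 0.142 of the smallest and 6.15% ± 7.79 of the largest. These shares were not tested, and those of clones above 1% rest on 137 entries of all J segments in 8 tumors, in which a clone of both tumors of a mouse counts once in each.

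The 10 CD8+ clones named above were at low frequency or absent outside their mouse and subset. In the CD4+ tumor cells of the same mouse they held 0.00135% to 0.0110% of the reads, and in a CD8+ tumor of any other mouse at most 0.00374%. The TRBV5/TRBJ1-1, TRBV26/TRBJ1-5 and first TRBV13-2/TRBJ1-3 clones of mouse 8 were found in no CD8+ tumor of another mouse. Clones at least 100 times more frequent in the other subset of the same organ and mouse made up at most 0.212% of a repertoire's clones. The amino acid sequence of the TRBV26/TRBJ1-3 clone of mouse 5 was encoded by another nucleotide sequence in the CD8+ tumors of mouse 7, with 0.193% of the reads.

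Left and right tumors of 1 mouse held the 5 segments at similar read shares. In CD8+ tumors the mean difference between left and right was 0.830 points for TRBJ1-1, 1.70 for TRBJ1-2, 0.667 for TRBJ1-3, 0.271 for TRBJ1-4 and 1.21 for TRBJ1-5, whereas tumors of different mice differed by 4.65, 5.49, 2.89, 3.50 and 6.08 points. When left and right were paired in all 24 ways, the true pairing gave the smallest difference for TRBJ1-1, TRBJ1-2, TRBJ1-3 and TRBJ1-5 (one-sided exact permutation p = 0.0417, the smallest possible with 4 mice; adjusted p = 0.0714), as for 58.3% of all segments. For TRBJ1-4 the exact p was 0.0833, since 1 other pairing gave a smaller difference than the true one. The 2 fragments of a CD8+ tumor differed by 0.516 points (TRBJ1-4) to 1.25 points (TRBJ1-2) on average over 8 tumors, and by up to 4.17 points for TRBJ1-5. In CD4+ tumors TRBJ1-5 was the 1 segment of the 5 that reached this p (0.100 points within and 0.749 between mice; adjusted exact p = 0.0909), against 33.3% of all segments, and the exact p of TRBJ1-1 to TRBJ1-4 was 0.0833. When clones above 1% were left out, 0 of the 5 segments reached it in either subset, against 0% of all segments in CD8+ and 25% in CD4+ tumors.

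In the dLNs, by reads, 0 of the 5 segments reached the smallest exact permutation p in CD8+ and in CD4+ dLNs (0% and 16.7% of all segments). Over the 12 segments, the read deviations of left and right dLNs from their group mean nevertheless correlated at 0.735 to 0.905 in the CD4+ dLNs of each mouse, against -0.722 to 0.580 in the CD8+ dLNs. By clones, 0 of 5 reached the smallest exact p in CD8+ dLNs, CD8+ tumors and CD4+ tumors (0% of all segments in each), and TRBJ1-1 did so in CD4+ dLNs (8.33% of all; adjusted exact p = 0.5). With the reads as deposited, TRBJ1-1 did not reach it in CD4+ dLNs (0% of all segments).

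By clones, 2 segments were less used in CD8+ tumors than in CD8+ dLNs. TRBJ1-1 fell from 9.64%, 9.66%, 9.65% and 9.66% in the dLNs of mice 5 to 8 to 9.19%, 9.11%, 9.03% and 8.97% in the tumors. TRBJ1-2 fell from 5.83%, 5.75%, 5.60% and 5.38% to 5.13%, 4.91%, 5.02% and 4.73%. In both segments every tumor value was below every dLN value, by 0.575 ± 0.101 points for TRBJ1-1 and by 0.693 ± 0.116 points for TRBJ1-2 (exact permutation p = 0.0286, adjusted p = 0.0490 for each). Of all 12 segments, 58.3% did not overlap. TRBJ1-5 had 2.37%, 2.34%, 2.46% and 2.37% in the tumors and 2.68%, 2.69%, 2.75% and 2.45% in the dLNs, which overlapped in mouse 8 (exact p = 0.0571). It passed when the mouse was a replicate block (limma, log2 difference -0.15, adjusted p = 0.000570). TRBJ1-3 and TRBJ1-4 differed by -0.0358 and 0.0497 points, within the spread of the mice. The median difference was -0.261 points over the 5 and -0.0291 over all 12 segments.

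In CD4+ T cells TRBJ1-5 was more used by clones in tumors than in dLNs. It made up 3.70%, 3.54%, 3.57% and 3.17% of the tumor clones in mice 5 to 8 and 2.99%, 3.13%, 2.86% and 2.75% of the dLN clones. The tumor values were all higher, by 0.561 ± 0.170 points on average (exact permutation p = 0.0286, adjusted p = 0.0571), and 50% of all segments did not overlap. TRBJ1-2 made up 5.38%, 6.27%, 6.42% and 6.31% of the tumor clones and 5.30% ± 0.110 of the dLN clones, and the low tumor value of mouse 5 overlapped the dLNs (exact p = 0.0571). In limma, with the replicate block of mice, it passed (log2 difference 0.20, adjusted p = 2.88e-07), so that 2 of the 5 segments did, against 58.3% of all segments. The median difference was 0.311 points over the 5 and -0.0335 over all 12 segments.

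The change of the clone share from dLN to tumor differed between the subsets for 4 of the 5 segments. CD8+ minus CD4+, the difference was -0.886 points for TRBJ1-1, -1.49 for TRBJ1-2, -0.231 for TRBJ1-3 and -0.822 for TRBJ1-5 (exact permutation p = 0.0286, adjusted p = 0.0381 for each), and 75% of all segments reached this p. TRBJ1-3 did not reach it with the reads as deposited (-0.188 points, exact p = 0.0571, 58.3% of all segments) or with at least 6 reads per clone (-0.212 points, exact p = 0.171, 50% of all segments). The means of these segments were lower in tumors than in dLNs in CD8+ T cells and higher in CD4+ T cells. For TRBJ1-4 the difference was 0.312 points (exact p = 0.0857).

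CD8+ tumors held a lower clone share of 4 of the 5 segments than CD4+ tumors. The difference was -0.972 ± 0.273 points for TRBJ1-1, -1.15 ± 0.604 for TRBJ1-2, -1.71 ± 0.185 for TRBJ1-3 and -1.11 ± 0.226 for TRBJ1-5 (exact permutation p = 0.0286, adjusted p = 0.0429 for each), among 66.7% of all segments. TRBJ1-3 made up 4.37%, 4.24%, 4.08% and 4.37% of the CD8+ tumor clones of mice 5 to 8 and 6.31%, 5.86%, 5.85% and 5.89% of the CD4+ tumor clones, a ratio of 0.714. For TRBJ1-4 the difference of -0.349 points had an exact p of 0.0857 and passed when the mouse was a replicate block (limma, log2 difference -0.08, adjusted p = 0.0197). By reads 0 of the 5 segments differed between the subsets in tumors, where 25% of all did. The median difference by clones was -1.11 points over the 5 and -0.569 over all 12 segments.

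In dLNs the lower clone share of TRBJ1-3 in CD8+ T cells was of similar size. TRBJ1-3 made up 4.41%, 4.28%, 4.19% and 4.32% of the CD8+ dLN clones and 5.93%, 5.65%, 5.76% and 5.79% of the CD4+ dLN clones, a difference of -1.48 ± 0.0838 points. TRBJ1-4 was lower by 0.662 points (SD 0.0734). Both had an exact permutation p = 0.0286 (adjusted p = 0.0429), as did 66.7% of all segments. In limma, with the replicate block of mice, TRBJ1-2 (log2 difference 0.09, adjusted p = 0.000107) and TRBJ1-5 (-0.15, adjusted p = 1.29e-08) passed too, so that 4 of 5 did, against 91.7% of all segments. TRBJ1-2 was the 1 segment of the 5 with a higher mean in CD8+ than in CD4+ dLNs (5.64% and 5.30%).

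By reads TRBJ1-3 was the 1 of the 5 that differed between CD8+ and CD4+ dLNs, against 41.7% of all segments. It held 4.13% ± 0.0918 of the CD8+ and 6.66% ± 0.845 of the CD4+ reads (-2.53 ± 0.780 points, exact permutation p = 0.0286, adjusted p = 0.0686). With the replicate block, TRBJ1-5 passed as well (limma, log2 difference -0.16, adjusted p = 0.0484), which made 2 of 5, against 50% of all segments. The median differences by reads were -0.369 points over the 5 and -0.343 over all 12 segments, and by clones -0.289 and -0.357.

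In CD8+ dLNs the CDR3 was shortest for TRBJ1-1 and TRBJ1-2, which bring the fewest germline bases, and longest for TRBJ1-4, which brings the most. There the mean CDR3 length, each clone counted once, was 39.76 ± 0.123 bases for TRBJ1-1, 40.71 ± 0.110 for TRBJ1-2, 41.78 ± 0.0891 for TRBJ1-5, 42.52 ± 0.132 for TRBJ1-3 and 43.10 ± 0.0860 for TRBJ1-4. The J bases kept in these clones averaged 17.10, 18.08, 18.96, 20.35 and 19.97 in the same order. TRBJ1-3 thus kept more bases than TRBJ1-4 although its germline end is 1 base shorter. In CD4+ T cells TRBJ1-3 also had the longer CDR3 of the 2, with 42.83 against 42.49 bases in tumors and 42.31 against 42.14 in dLNs. Over the clone records of all groups, the share with an untrimmed J end was 50.4% for TRBJ1-3, against 37.1% for TRBJ1-2, 30.6% for TRBJ1-4, 25.5% for TRBJ1-1 and 24.6% for TRBJ1-5. The most frequent CDR3 length in CD8+ dLNs was 14 residues for TRBJ1-1 (32.9% of clones), TRBJ1-2 (35.6%), TRBJ1-3 (41.1%) and TRBJ1-5 (35.3%) and 15 residues for TRBJ1-4 (34.0%).

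With each clone counted once, the mean CDR3 was longer in tumors than in dLNs of the same subset for all 5 segments. In CD8+ T cells the CDR3 was longer in tumors by 0.315 ± 0.0727 bases for TRBJ1-1, 0.3196 ± 0.0770 for TRBJ1-3, 0.256 ± 0.0769 for TRBJ1-4 and 0.208 ± 0.123 for TRBJ1-5 (exact permutation p = 0.0286, adjusted p = 0.0312 for each), as for 91.7% of all segments. TRBJ1-5 overlapped at an equal number of reads (0.133 bases) and with at least 6 reads per clone (0.193 bases; exact p = 0.0571 for both). TRBJ1-2 was 0.177 bases longer in tumors and overlapped by exact test, but passed with the replicate block (limma, adjusted p = 0.000431). In CD4+ T cells all 5 were longer in tumors, by 0.295 ± 0.171 bases for TRBJ1-1, 0.365 ± 0.102 for TRBJ1-2, 0.518 ± 0.104 for TRBJ1-3, 0.348 ± 0.146 for TRBJ1-4 and 0.9805 ± 0.240 for TRBJ1-5 (exact permutation p = 0.0286, adjusted p = 0.0381), as for 75% of all segments. The median over all 12 segments was 0.318 bases in CD8+ and 0.404 in CD4+ T cells, against 0.256 and 0.365 over the 5. None of the 5 differed in either subset when clones were weighted by their reads, against 8.33% of all segments in CD8+ and 16.7% in CD4+ T cells. In the setting named equal V weights, each V segment was weighted by its clones of the J segment over all repertoires. These weights were the same in every repertoire. With them, 2 of the 5 remained in CD8+ T cells, TRBJ1-3 (0.290 bases) and TRBJ1-4 (0.226 bases), and 75% of all segments passed. In CD4+ T cells, with the same weights, TRBJ1-2 no longer passed (0.129 bases, exact p = 0.114), and the other 4 of the 5 did, against 75% of all segments.

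TRBJ1-5 stood out among the CD4+ differences. Its CDR3s averaged 41.69, 41.68, 41.66 and 41.97 bases in the CD4+ tumors of mice 5 to 8 and 40.71, 40.80, 40.91 and 40.65 in the dLNs. The change from dLN to tumor was 0.773 bases smaller in CD8+ than in CD4+ T cells (exact permutation p = 0.0286, adjusted p = 0.114), which 25% of all segments reached. Weighted by reads it was 0.632 bases larger instead (exact p = 0.6). It was also the 1 of the 5 that kept more J bases in CD4+ tumors, 18.82 ± 0.0408 against 18.46 ± 0.0743 in dLNs (0.365 ± 0.103 bases, exact permutation p = 0.0286, adjusted p = 0.171; 16.7% of all segments). The groups overlapped with at least 6 reads per clone (0.214 bases, exact p = 0.0857) and when clones were weighted by their reads (0.213 bases, exact p = 0.686). Of the CD4+ TRBJ1-5 clones, 26.2% in tumors and 21.9% in dLNs had an untrimmed J end, and 13.5% and 16.2% had lost 7 bases or more. In CD8+ T cells 0 of the 5 segments differed in kept J bases between tumor and dLN, against 25% of all segments, and with the replicate block TRBJ1-4 passed (limma, 0.0904 bases more in tumors, adjusted p = 0.0272).

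**Figure D3:**
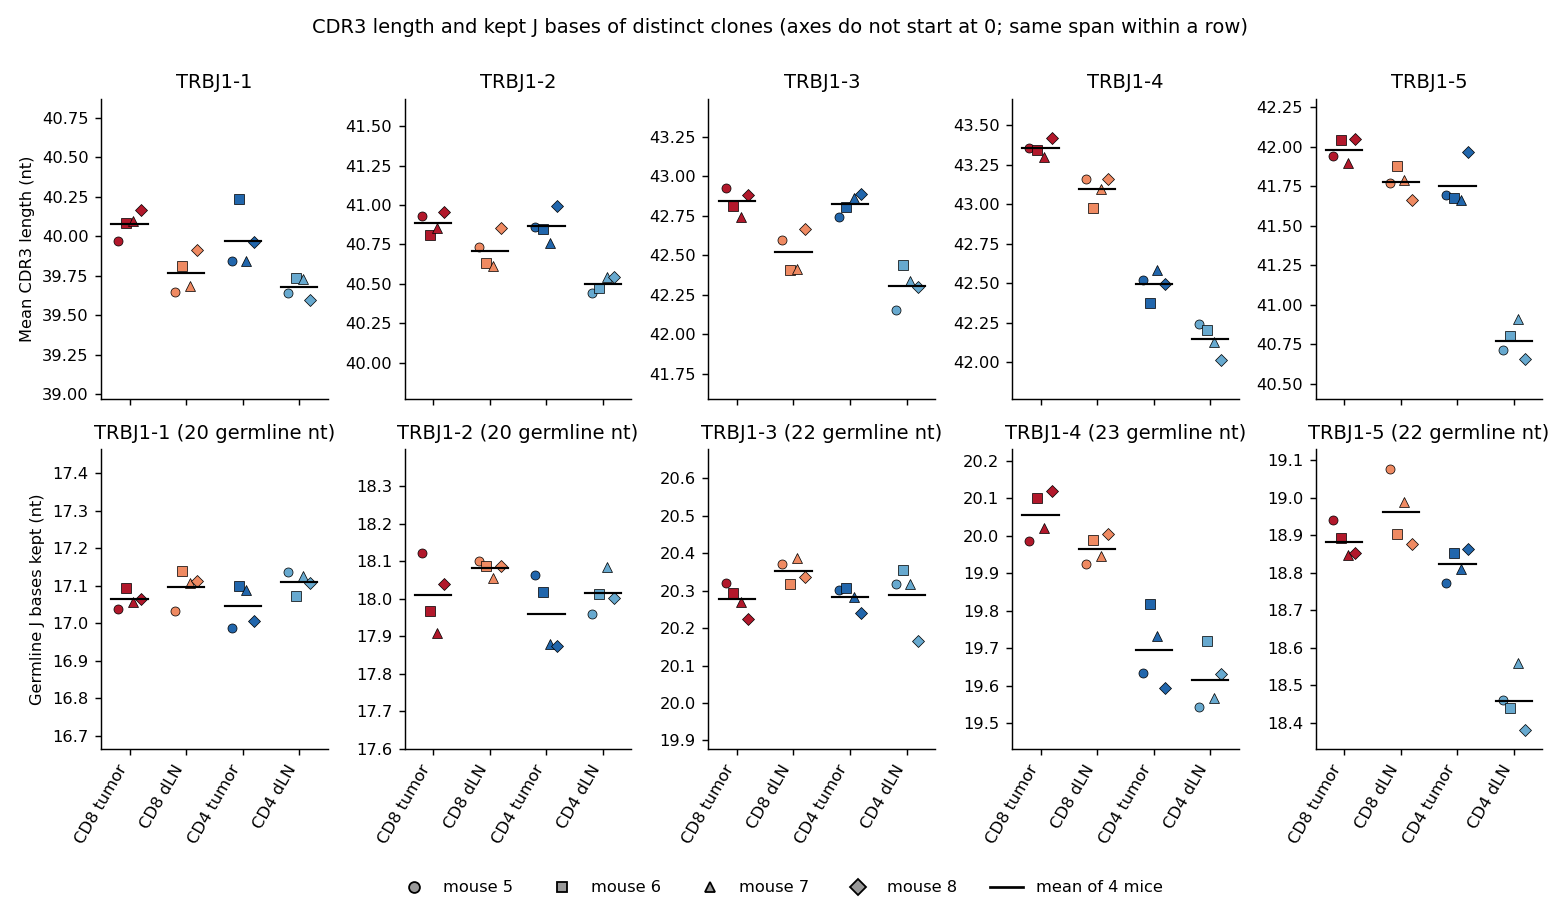
Mean CDR3 length (bases) and mean number of kept germline J bases of the clones of each segment, by group, with 1 marker per mouse and a horizontal line for the mean. CDR3 length is higher in tumors than in dLNs, and the CD4+ dLN clones have the lowest mean for each of the 5 segments, such as 42.14 bases for TRBJ1-4 and 40.77 for TRBJ1-5.

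Between the subsets, TRBJ1-4 clones were longer in CD8+ than in CD4+ T cells in both organs. The CDR3 of TRBJ1-4 averaged 43.36 ± 0.0484 bases in CD8+ tumors and 42.49 ± 0.0853 in CD4+ tumors (0.863 ± 0.108 bases), of which the kept J bases made up 0.361 ± 0.113 (exact permutation p = 0.0286 and adjusted p = 0.0571 for both). In tumors 50% of all segments differed in length and 50% in kept J bases, and TRBJ1-4 was the 1 of the 5 in each. With the replicate block TRBJ1-5 was longer as well (limma, 0.233 bases, adjusted p = 0.00337). In dLNs TRBJ1-4 was longer in CD8+ T cells by 0.955 ± 0.154 bases, TRBJ1-5 by 1.01 ± 0.0880 and TRBJ1-2 by 0.208 ± 0.111 (exact permutation p = 0.0286, adjusted p = 0.0381; 75% of all segments). When clones were weighted by their reads, the call was lost for the TRBJ1-4 length (1.29 bases, exact p = 0.114) and kept J bases (1.06 bases, exact p = 0.0571) in tumors and for the TRBJ1-2 length in dLNs (0.0980 bases, exact p = 0.771). For tumor length, 1 other of the 5 segments passed with this weighting, against 25% of all segments. TRBJ1-3, with 0.214 bases in dLNs, overlapped by exact test (p = 0.0857) and passed with the replicate block (limma, adjusted p = 0.0136). With equal V weights it passed the exact test too (0.296 bases, exact p = 0.0286). More J bases were kept in CD8+ than CD4+ dLNs by TRBJ1-4 (0.351 ± 0.0539) and TRBJ1-5 (0.503 ± 0.0821; exact permutation p = 0.0286, adjusted p = 0.0490; 58.3% of all segments). The untrimmed end of TRBJ1-4 was found in 33.2% of CD8+ tumor, 30.2% of CD8+ dLN, 28.7% of CD4+ tumor and 25.4% of CD4+ dLN clones.

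Over the 5 segments together, the CDR3 bases from the V segment averaged 13.65 in CD8+ tumors, 13.63 in CD8+ dLNs, 13.69 in CD4+ tumors and 13.64 in CD4+ dLNs. The bases between V and J, which hold the D segment and the added bases, averaged 8.81 ± 0.0492 in CD8+ tumors and 8.57 ± 0.0690 in CD8+ dLNs. In CD4+ T cells they averaged 8.52 ± 0.0467 and 8.25 ± 0.0109. Clones of the 5 segments with 16 residues or more made up 8.50% in CD8+ tumors, 7.11% in CD8+ dLNs, 8.64% in CD4+ tumors and 5.81% in CD4+ dLNs. For the TRBJ2 segments the stretch between V and J was longer, with 10.6, 10.2, 10.0 and 9.73 bases in these groups. These averages were not tested.

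The D letters between V and J differed between the clusters. The germline D segments are shown because they differ within the capitals, a stretch of 6 bases that reads GACAGG in TRBD1 and GACTGG in TRBD2.
TRBD1: ggGACAGGgggc
TRBD2: ggGACTGGgggggc
Both were searched on the coding strand only, between the last V and the first J base. GACAGG was found in 21.8% ± 0.260 of the clones of the 5 segments in CD8+ tumors, 20.99% ± 0.167 in CD8+ dLNs, 20.2% ± 0.577 in CD4+ tumors and 18.9% ± 0.437 in CD4+ dLNs. GACTGG was found in 0.0648%, 0.0377%, 0.0521% and 0.0327% of them. Among clones of the TRBJ2 segments GACTGG was found in 24.6%, 22.5%, 19.3% and 18.1% and GACAGG in 9.64%, 10.5%, 10.5% and 10.3%. The deposited D calls of the 5 segments gave TRBD1 for 61.2% to 64.9% of the clones, TRBD2 for 5.14% to 5.60% and none for 29.5% to 33.5%. The deposited calls thus named TRBD2 more often than its 6 letters occurred.

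**Figure D4:**
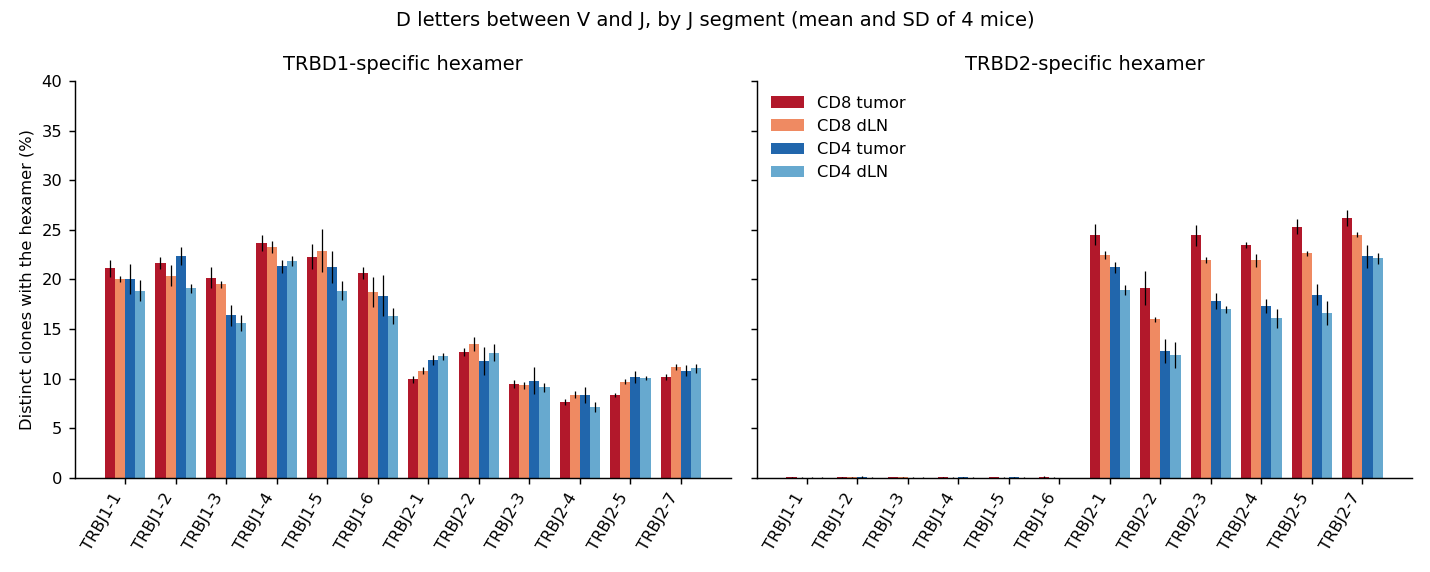
Percent of clones with the TRBD1 letters and with the TRBD2 letters between V and J, for each of the 12 J segments in the 4 groups, as mean and SD over mice. TRBJ1-1 to TRBJ1-5 together hold the TRBD1 letters in 18.9% to 21.8% of clones and the TRBD2 letters in at most 0.0648%, whereas the TRBJ2 segments hold both.

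The V partners of a segment were compared with the share of each V segment among all clones of the same repertoire, so that a ratio of 1 means that V and J occur together as often as their separate shares predict. A pair was examined when at least 20 clones were expected in each of the 8 repertoires of a group. In CD8+ dLNs 50 of 90 pairs of the 5 segments lay on the same side of 1 in all 8 repertoires (52.9% of the pairs of all segments), with ratios from 0.510 to 1.70. The highest and lowest ratios named below are those among such pairs. In CD8+ tumors 41 of 80 did (51% of all), in CD4+ dLNs 28 of 64 (33.9% of all) and in CD4+ tumors 15 of 42 (29.9% of all).

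In CD8+ dLNs TRBV20 was over-represented with TRBJ1-1 (ratio 1.38 ± 0.159), TRBJ1-2 (1.61 ± 0.163) and TRBJ1-3 (1.70 ± 0.340) and under-represented with TRBJ1-4 (0.721 ± 0.0423). TRBV12-1 made up 11.1% of the TRBJ1-2 clones, the most of any V segment, whereas it was the most under-represented V segment with TRBJ1-1 (0.578 ± 0.0489) and TRBJ1-5 (0.510 ± 0.0750). The most frequent V segment was TRBV13-1 with TRBJ1-1 (9.09%), TRBV16 with TRBJ1-3 (8.89%) and TRBV13-2 with TRBJ1-4 (9.91%) and TRBJ1-5 (10.3%). TRBV29 had the highest ratio with TRBJ1-4 (1.38 ± 0.0881) and TRBV1 with TRBJ1-5 (1.41 ± 0.0336). The lowest ratios were those of TRBV15 with TRBJ1-2 (0.521 ± 0.0485) and TRBV4 with TRBJ1-3 (0.553 ± 0.0260).

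Among the pairs of CD4+ dLNs on 1 side of 1, TRBV15 had the lowest ratio with TRBJ1-2 (0.468 ± 0.101), TRBJ1-3 (0.622 ± 0.0860) and TRBJ1-4 (0.6996 ± 0.168) and the highest with TRBJ1-1 (1.53 ± 0.139). The most frequent V segments were TRBV1 with TRBJ1-1 (9.86% of its clones), TRBV3 with TRBJ1-2 (13.7%) and TRBV13-2 with TRBJ1-3 (12.2%), TRBJ1-4 (10.2%) and TRBJ1-5 (13.5%). The highest ratios were those of TRBV2 with TRBJ1-2 (1.52 ± 0.210), TRBV26 with TRBJ1-3 (1.41 ± 0.157), TRBV5 with TRBJ1-4 (1.204 ± 0.0993) and TRBV1 with TRBJ1-5 (1.38 ± 0.0916).

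In CD8+ tumors TRBV12-2 was the most frequent V segment with all 5, with up to 15.1% of the TRBJ1-3 clones. TRBV26, the V segment of the largest TRBJ1-2, TRBJ1-3 and TRBJ1-5 clones, had the highest ratio with TRBJ1-3 (1.44 ± 0.139) when each clone was counted once. In CD4+ tumors TRBV13-2 was the most frequent V segment with all 5, from 14.6% of the TRBJ1-4 clones to 22.6% of the TRBJ1-2 clones.

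Of the pairs of the 5 segments on 1 side of 1 in both organs, 33 of 33 lay on the same side in CD8+ tumors and dLNs and 10 of 10 in CD4+ tumors and dLNs. Between the subsets 16 of 18 lay on the same side in dLNs. The other 2 were TRBV13-1/TRBJ1-1, with 1.33 ± 0.0557 in CD8+ and 0.869 ± 0.0661 in CD4+ dLNs, and TRBV13-2/TRBJ1-3, with 0.707 ± 0.00884 and 1.06 ± 0.0644. In tumors 5 of 6 lay on the same side, and TRBV19/TRBJ1-1 had 1.199 ± 0.0419 in CD8+ and 0.908 ± 0.0670 in CD4+ tumors. Differences between the ratios of 2 groups were not tested.

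**Figure D5:**
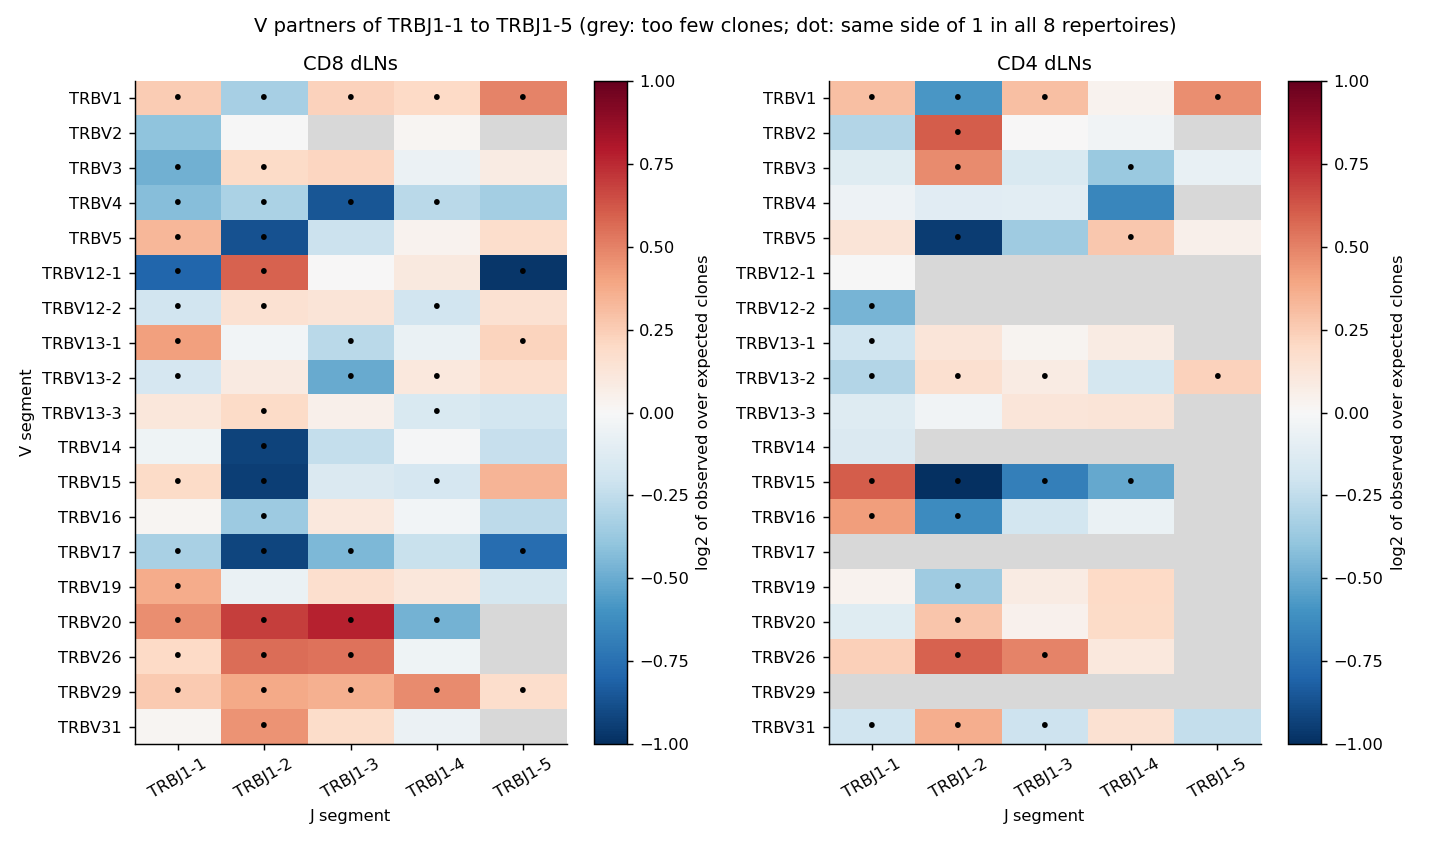
Ratio of observed to expected clones (log2 color scale) of V segments with TRBJ1-1 to TRBJ1-5 in CD8+ and CD4+ dLNs, with a dot where all 8 repertoires lie on the same side of 1. Red and blue cells of 1 V segment differ between J segments, as for TRBV20 in CD8+ dLNs with 1.70 for TRBJ1-3 and 0.721 for TRBJ1-4.

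Over the 16 mouse means of the 4 groups, the J segment outside the 5 whose clone share was most like theirs was TRBJ2-4 for each of them. Pearson's r was 0.946 for TRBJ1-3, 0.848 for TRBJ1-4, 0.729 for TRBJ1-5, 0.558 for TRBJ1-1 and 0.215 for TRBJ1-2. These are descriptions over points that fall into 4 groups and share 4 mice.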

How the data were processed

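TCRβ repertoires of tumors and dLNs of 4 mice were processed from 48 clone tables. According to the methods of the study, the authors used Cutadapt 3.2 and PRINSEQ for trimming, MiXCR with IMGT mouse segments for the assembly of productive clones, and VDJtools for the tables. The deposited values are the read count of each clone, before down-sampling, and its fraction of the library total as computed by the authors. The positions of V, D and J ends within the CDR3 (deposited as such, with -1 where no D segment was assigned, which is no score) were used for the D letters and for 1 alternative. Library preparation used template switching without molecular identifiers, so that PCR can change read shares more than clone shares.

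Reads were drawn once without replacement to 6 per sorted cell, as the study did, with its cell numbers (seed 20), and 1 record outside the 12 J segments was left out of tests. Kept J bases were matched from the CDR3 end to the germline. Groups come from the sample titles, and left and right were averaged per mouse. Exact permutation tests ran over 70 divisions of 4 and 4 values (192 tests, and 36 of the difference between subsets) and over 24 pairings of left and right (96 tests). They were tested on simulated data. The pairing comes from the labels, where a number marks 1 animal. Left and right deviations by reads correlated at 0.960 to 0.985 in CD8+ and 0.917 to 0.992 in CD4+ tumors, at 0.735 to 0.905 in CD4+ dLNs and at -0.722 to 0.580 in CD8+ dLNs. The replicate block fit was made with limma over the 12 segments, since sign changes of 4 mice cannot go below p = 0.125.

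The 5 segments, the tests and the alternatives were chosen with earlier results of these data known. Named were all 5 segments, the V segments with the highest share and with the highest and lowest ratio, the largest tumor clone of each segment and subset, CD8+ clones above 3%, and the most like other J segment. The alternatives were reads as deposited, an equal number of reads per repertoire, a minimum of 6 reads, clones by amino acids, removal of clones 100 times more frequent in another mouse, removal of clones above 1%, weighting by reads, leaving out each mouse, and the block. Chosen after seeing the data were removal of 1-base neighbours (169 entries), removal of clones 100 times more frequent in the other subset (694 entries), J bases from the deposited positions, and equal V weights. The authors' supplementary values were not used apart from cell numbers. The tools were limma 3.58.1 in R 4.3.3 and, in Python 3.11.15, scipy 1.17.1, pandas 2.3.3, numpy 2.4.6 and matplotlib 3.10.9.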

Additional observations from a re-analysis of the deposited data

Results flagged for a closer look

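Of 80 groups of 4 mouse values, 7 held a value that lay far from the other 3 by Dixon's criterion, which chance passes in about 1 in 20 groups. By reads, these were TRBJ1-5 in the CD8+ tumors of mouse 8 (12.4%) and TRBJ1-3 in the CD4+ dLNs of mouse 5 (7.92%). By clones, all 4 were of mouse 5, namely TRBJ1-4 in CD8+ tumors (6.28%) and in CD8+ dLNs (6.14%), and TRBJ1-2 (5.38%) and TRBJ1-3 (6.31%) in CD4+ tumors. The remaining one was the CDR3 length of TRBJ1-5 in the CD4+ tumors of mouse 8 (41.97 bases).

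The change from dLN to tumor differed between CD8+ and CD4+ T cells in 6 values of the 5 segments (exact permutation p = 0.0286 for each, n = 4 mice). CD8+ minus CD4+, these were 3.51 points for the read share of TRBJ1-3, -0.886, -1.49, -0.231 and -0.822 points for the clone shares of TRBJ1-1, TRBJ1-2, TRBJ1-3 and TRBJ1-5, and -0.773 bases for the CDR3 length of TRBJ1-5. Of all 12 segments, 16.7% reached this p by reads, 75% by clones and 25% by length. The adjusted exact p was 0.171 by reads, 0.0381 by clones and 0.114 by length. The clone share of TRBJ1-3 changed by -0.0358 points in CD8+ and 0.195 points in CD4+ T cells, neither of which passed the test alone.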

How the results depend on the processing

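Of 34 differences of the 5 segments that passed the exact test, 17 did so in all settings that were run for them, among them every clone share difference between tumor and dLN or between CD8+ and CD4+ T cells. How many differences of the other J segments passed in all settings was not counted. The difference between the subsets' changes in the clone share of TRBJ1-3 did not pass with the reads as deposited or with at least 6 reads. Counts named here are of the 5 segments, with those of all 12 segments in the same settings in brackets. Without clones above 1%, 3 instead of 1 differed by reads between CD8+ tumors and dLNs (4 in both settings), 1 instead of 0 between CD4+ tumors and dLNs (3 instead of 2) and between CD8+ and CD4+ tumors (1 instead of 3), and the similarity of left and right passed for 0 instead of 4 in CD8+ (0 instead of 7) and 0 instead of 1 in CD4+ tumors (3 instead of 4). TRBJ1-5 then reversed to -0.555 points (CD8+ tumor against dLN), -1.47 (CD8+ against CD4+ tumor) and -1.20 (difference between subsets), and TRBJ1-3 to -0.222 in the last. Without mouse 8 these TRBJ1-5 values were -1.48, -1.95 and -1.70, and over the mice left out in turn they ranged from -1.48 to 2.53, from -1.95 to 1.85 and from -1.70 to 2.10. Weighted by reads, CDR3 length differed for 0 instead of 4 segments in CD8+ (1 instead of 11), 0 instead of 5 in CD4+ T cells (2 instead of 9) and 0 instead of 1 between the subsets' changes (1 instead of 3), kept J bases for 0 instead of 1 in CD4+ (0 instead of 2) and between tumors (0 instead of 6), and the CD4+ differences of TRBJ1-1, TRBJ1-2 and TRBJ1-4 reversed to -0.219, -0.00207 and -0.0328 bases and the subset difference of TRBJ1-5 to 0.632. With at least 6 reads, kept J bases differed for 2 instead of 0 in CD8+ (4 instead of 3) and 0 instead of 1 in CD4+ (0 instead of 2), CD4+ clone share for 3 instead of 1 (8 instead of 6) and the changes in length for 2 instead of 1 (4 instead of 3). An equal number of reads and the deposited J positions gave 1 for kept J bases in CD8+ (4 each), and the latter 2 in CD4+ (2) and between tumors (5). Equal V weights gave 2 for CD8+ length (9) and kept J bases (6), 3 for length between tumors (8) and 5 between dLNs (11). Reads as deposited gave 0 instead of 1 for left and right CD4+ dLN clones (0 instead of 1). The cause of these changes was not tested.

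With the replicate block (limma) and its adjusted p, the counts were 0 instead of 1 for CD8+ reads (1 instead of 4), 1 instead of 0 for CD8+ kept J bases (4 instead of 3), 2 instead of 1 for CD4+ clones (7 instead of 6), tumor length (9 instead of 6) and dLN reads (6 instead of 5), and 4 instead of 2 for dLN clones (11 instead of 8). The block changed no other count by over 1.5 times. At the unadjusted p, as in the exact test, it gave 2 for CD8+ reads (4) and 3 for CD8+ kept J bases (6), and for the 5 segments the same count as at the adjusted p elsewhere. With 1 mouse left out, where the smallest exact p is 0.1 and a count is of groups without overlap, the ranges by reads, clones, length and kept J bases for tumor against dLN were 1 to 3 (4 to 6), 2 to 3 (7 to 9), 4 to 5 (11 to 12) and 0 to 4 (3 to 7) in CD8+, and 0 to 1 (2 to 5), 1 to 4 (6 to 10), 5 to 5 (9 to 11) and 1 to 2 (2 to 3) in CD4+. For CD8+ against CD4+ they were 0 to 2 (3 to 6), 4 to 5 (8 to 10), 1 to 2 (7 to 9) and 1 to 1 (6 to 7) in tumors, and 2 to 2 (6 to 7), 2 to 4 (9 to 11), 3 to 4 (9 to 10) and 2 to 3 (7 to 9) in dLNs. For the difference between subsets they were 1 to 3 (2 to 4) by reads, 4 to 5 (9 to 10) by clones and 1 to 3 (3 to 5) by length. For left and right by reads and by clones they were 4 to 5 (8 to 10) and 1 to 2 (1 to 3) in CD8+ tumors, 0 to 1 (0 to 3) and 0 to 3 (0 to 3) in CD8+ dLNs, 2 to 4 (6 to 9) and 0 to 1 (1 to 3) in CD4+ tumors, and 0 to 2 (2 to 5) and 1 to 2 (1 to 2) in CD4+ dLNs.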
